A study of Mus musculus with 25 samples.

Results

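The fibrous sheath genes described here were Akap3, Akap4, Fscb, Cabyr, Ropn1, Ropn1l and Spa17, chosen by name because their proteins belong to the fibrous sheath of the sperm tail. These 7 genes were followed through the stages of germ cell development and across mouse strains, and all 7 were found among the 29244 gene symbols of the count tables. Testis cells had been profiled by Drop-seq, a droplet method that captures the 3′ ends of transcripts from single cells and counts molecules by unique molecular identifiers (UMIs). The 25 libraries held 48642 barcodes and 65063387 UMIs. Of these libraries, 11 came from wild-type adult testis on C57BL/6, 6 from Mlh3-/- testis on B6;129, 2 from Cul4a-/- testis on B6;129, and 2 from testis of CNP eGFP BAC TRAP mice on C57BL/6, named CNP here. The remaining 4 were sorted fractions, 1 library each. Spermatogonia were GFP-positive cells of pups labelled Pouf51-EGFP (Pou5f1-EGFP on B6;CBA in the study's methods) at 7 days, pooled from 5 littermates. Primary spermatocytes, secondary spermatocytes and spermatids were gated by Hoechst staining from wild-type C57BL/6 testis at 2 months and 21 days. The wild-type animals were 3 months and 1 day to 9 months and 14 days old, the Mlh3-/- animals 2 months and 21 days to 8 months and 30 days, the Cul4a-/- animals 1 month and 18 or 21 days and the CNP animals 2 months and 14 or 16 days. These ages are those of the labels, and those of Cul4a-/- and CNP are in doubt, since the study's own sample list gives them the other way round. Strain names are likewise spelled as labelled. The labels put both mutants on B6;129, where the study's methods write the Mlh3 strain as B6.129, and the wild-type animals on C57BL/6, so genotype and background cannot be told apart. By the labels every Cul4a-/- and CNP animal was also younger than every wild-type one, so age cannot be told apart from these genotypes.

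The fibrous sheath encloses the axoneme and outer dense fibers along the principal piece of the flagellum, and consists of a pair of longitudinal columns joined by circumferential ribs. AKAP3 and AKAP4 are its main structural proteins and anchor protein kinase A (PKA), the cAMP-dependent kinase that acts in sperm motility and capacitation. FSCB is a calcium-binding protein of the sheath that associates with CABYR, itself a calcium-binding protein phosphorylated on tyrosine during capacitation. ROPN1, ROPN1L and SPA17 share with CABYR a domain like the dimerization and docking domain of the PKA regulatory subunit, through which they bind A-kinase anchoring proteins. ROPN1L and SPA17 are also found in motile cilia, where such a domain serves the radial spokes of the axoneme. The sheath is assembled late in spermiogenesis, after meiosis has been completed.

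Library totals ran from 357235 to 3829176 UMIs in wild-type, 450745 to 6340116 in Mlh3-/-, 9691555 and 9745302 in Cul4a-/-, 775386 and 1054964 in CNP, and 107117 to 1168498 in the sorted fractions. The Cul4a-/- libraries were thus the deepest and the CNP libraries and Hoechst fractions among the shallowest. Since each Cul4a-/- library was deeper than every wild-type one, depth and this genotype cannot be told apart. After filtering, 36622 barcodes (75.3%) were kept, but only 24.9% of those of Mlh3-/-, most of the others being above the limit on the mitochondrial transcript mt-Rnr2. Of 48081 distinct barcodes, 430 occurred in more than 1 library. The wild-type libraries 1 and 2 and the sorted spermatogonia were dissociated enzymatically and the other libraries mechanically, and wild-type libraries 1 and 3, Mlh3-/- libraries 1 and 2 and the Hoechst fractions were sequenced on a MiSeq rather than a HiSeq. Cells were clustered without the 7 genes and 22 functionally related genes, and clusters were called "like" a cell type from marker genes. In wild-type, 123 cells were leptotene/zygotene-like, 358 pachytene-like, 2228 like cells in or near the meiotic divisions, 2248 round spermatid-like and 3610 elongating spermatid-like, while 16219 stayed unnamed. The unnamed cells held between 32.2% (Cabyr) and 43.4% (Ropn1l) of the wild-type UMIs of each gene. Mlh3-/- had 655 pachytene-like cells, 33 division-like cells and no spermatid-like cell. Of the sorted spermatogonia, 212 of 225 cells were spermatogonia-like. In the primary spermatocyte fraction, 15 of 188 cells were pachytene-like and 158 lay in a cluster led by hemoglobin genes, but with the 29 genes kept in the clustering 156 lay instead in an unnamed cluster of shallow cells whose best-scoring class was pachytene, so that this fraction was neither matched to its label nor shown to go against it. Of the secondary spermatocyte fraction, 154 of 398 barcodes were kept. They held 76 elongating and 40 round spermatid-like cells but 5 division-like ones. As far as these class names hold, this goes against the label for the cells kept. Of the 76, 56 lay in the same cluster, as did 136 of the 216 elongating spermatid-like cells of the spermatid fraction. At Leiden resolution 1, the cluster with 56 cells of the secondary spermatocyte fraction was shallow (median 303.5 UMIs). It had 3 elongating spermatid markers raised but 0 among its 10 leading genes, and its second-best class was round spermatid. Both fractions are given here only as the libraries labelled that way. The mutated genes did not serve to check the labels: the level of Mlh3 was 44.7 ± 18.4 CPM (SD, n = 11) in wild-type and 49.8 ± 22.7 (n = 6) in Mlh3-/-, where a 3′ tag may lie outside the deleted part, and Cul4a was at 30.7 ± 12.5 in wild-type and at 49.0 and 54.5 in Cul4a-/-.

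Levels are given in UMIs of a gene per 1000000 UMIs (counts per 1000000, CPM), summed over the cells of a class in a library with at least 10 such cells, and the library was the replicate throughout. The study's text counts 11 wild-type animals for the 11 wild-type libraries. The labels do not say for every library that it came from a separate animal. Mlh3-/- libraries 2 and 3 carry the same age (8 months and 30 days), and whether they came from the same animal is not known here. The p-values therefore measure the spread between these libraries. In the wild-type series, the 7 genes did not peak in the same class. Among the 9 wild-type libraries with all 4 classes from pachytene to elongating, Akap4, Fscb and Spa17 were highest in elongating spermatid-like cells in 9 of 9 libraries. Cabyr and Ropn1 were highest in round spermatid-like cells in 9 of 9, and Akap3 in 8 of 9, wild-type library 10 being the exception. For Akap3 and Ropn1 the order of round and elongating cells depended on the scaling and the clustering, as given with the tests below. Ropn1l was highest in division-like cells in 6 libraries and in round spermatid-like cells in 3.

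**Figure D1:**
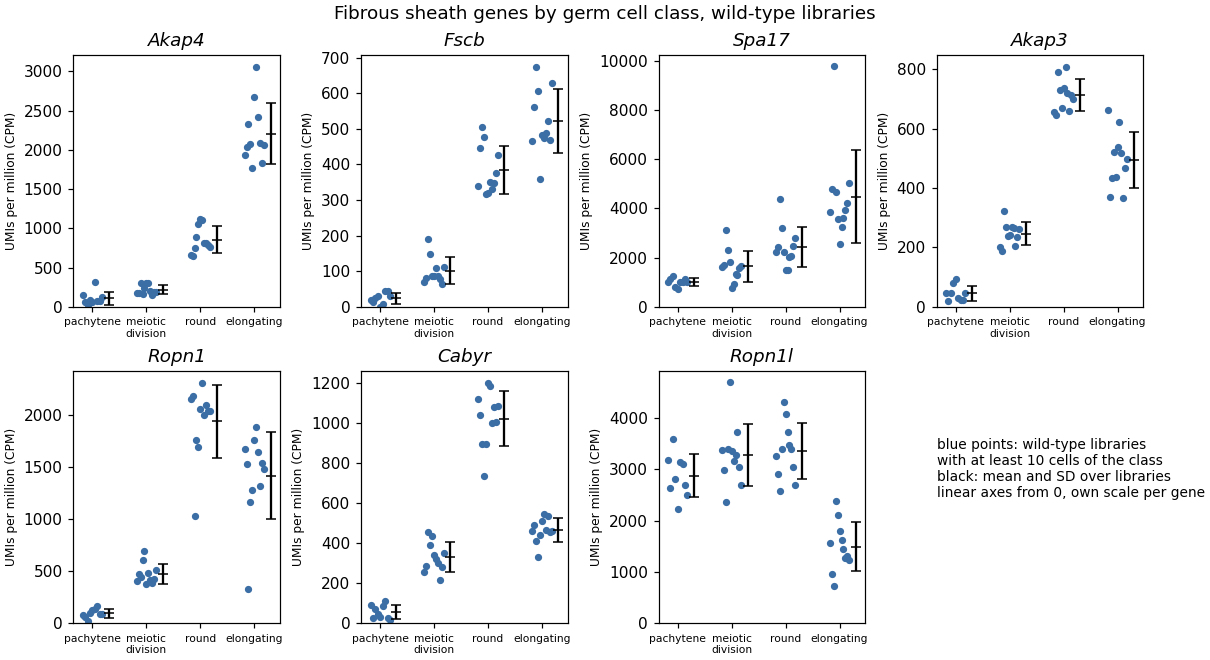
CPM of each of the 7 genes in the wild-type libraries by class, from pachytene-like to elongating spermatid-like cells. Each point is 1 library with at least 10 cells of the class and the bar is the mean with its SD. Akap4 runs from a mean of 108 in pachytene-like to 2208 in elongating spermatid-like cells, whereas Cabyr peaks at 1023 in round spermatid-like cells and Ropn1l is already at 2878 in pachytene-like cells.

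The scaffold genes Akap3 and Akap4 followed different courses. The level of Akap3 was 44.7 ± 26.0 CPM (SD, n = 9; lowest 19.1, median 44.9, highest 91.8) in pachytene-like cells, 245 ± 38.9 (n = 11; 187, 241 and 324) in division-like cells, 712 ± 53.5 (n = 11; 645, 712 and 808) in round spermatid-like cells and 494 ± 93.6 (n = 11; 365, 499 and 662) in elongating spermatid-like cells. From pachytene to round the ranges of adjacent classes did not overlap, while the round and elongating ranges met between 645 and 662 CPM. The level of Akap4 was 108 ± 85.7 CPM (n = 9; 23.8, 78.3 and 313) in pachytene-like cells, 217 ± 60.9 (148, 193 and 308) in division-like, 855 ± 170 (651, 807 and 1120) in round and 2208 ± 386 (1775, 2073 and 3060) in elongating spermatid-like cells. For Akap4 the pachytene-like and division-like ranges overlapped, and the round and elongating ranges did not.

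The calcium-binding pair Fscb and Cabyr separated in the same way. Fscb was at 23.4 ± 15.6 CPM (SD, n = 9; 0, 23.8 and 44.7) in pachytene-like, 101 ± 38.1 (n = 11; 62.5, 86.8 and 191) in division-like, 385 ± 67.5 (316, 350 and 506) in round and 521 ± 89.6 (360, 487 and 674) in elongating spermatid-like cells. Cabyr was at 55.4 ± 34.4 CPM (n = 9; 15.7, 43.5 and 112), 330 ± 74.1 (n = 11; 216, 322 and 456), 1023 ± 137 (738, 1039 and 1200) and 464 ± 60.6 (329, 461 and 548) in the same classes. The round and elongating ranges of Fscb overlapped, and those of Cabyr did not, with every elongating value below every round value.

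Of the 3 genes for small docking proteins, Ropn1 was highest by CPM at the round stage, as was Cabyr. By CPM, the values of Ropn1l in meiosis overlapped those in round spermatid-like cells, and Spa17 was highest late. The edgeR fits below, with another scaling, called Ropn1l higher in both steps to the round stage. Ropn1 was at 95.6 ± 42.3 CPM (SD, n = 9; 23.8, 88.2 and 168) in pachytene-like, 473 ± 98.6 (n = 11; 379, 441 and 694) in division-like, 1936 ± 349 (1027, 2034 and 2301) in round and 1415 ± 419 (326, 1527 and 1878) in elongating spermatid-like cells. Ropn1l was at 2878 ± 417 CPM (n = 9; 2234, 2812 and 3589), 3279 ± 602 (n = 11; 2354, 3271 and 4709), 3354 ± 544 (2583, 3404 and 4311) and 1492 ± 483 (717, 1446 and 2382) in these classes. The first 3 of these ranges of Ropn1l overlapped widely, and each elongating value lay below each round one. Spa17 was at 1006 ± 162 CPM (n = 9; 735, 1015 and 1260), 1644 ± 643 (n = 11; 752, 1600 and 3111), 2444 ± 819 (1494, 2247 and 4400) and 4480 ± 1905 (2569, 3928 and 9800). Its ranges overlapped between all adjacent classes. The lowest elongating value of Ropn1 (326 CPM, against 1161 to 1878 in the other 10 libraries) and the highest of Spa17 (9800, against 2569 to 5036) both came from wild-type library 1, an enzymatic MiSeq library of 102 barcodes with 31 elongating spermatid-like cells.

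The low values of 6 of the 7 genes in early meiosis were no higher than in Sertoli-like cells, somatic cells that should lack them. In the 5 wild-type libraries with enough Sertoli-like cells, Akap3 was at 342 ± 83.6 CPM, Akap4 at 825 ± 182, Fscb at 239 ± 172, Cabyr at 422 ± 163, Ropn1 at 1045 ± 201 and Spa17 at 1575 ± 530, each above its mean in pachytene-like and in leptotene/zygotene-like cells. After thinning every cell to 500 UMIs, 28.0% of 82 wild-type Sertoli-like cells and 6.21% of 322 pachytene-like cells had a UMI of Akap4 (33.0% and 19.3% before thinning, at median depths of 614.5 and 1989 UMIs). The pachytene-like and leptotene/zygotene-like levels of Akap3, Akap4, Fscb, Cabyr and Ropn1 in wild-type are therefore called background here, meaning no higher than in Sertoli-like cells, and are not read as expression. How much of them was free RNA was not tested. The division-like means of the same 5 genes were also below the Sertoli-like ones, and the round spermatid-like values of Akap4 (651 to 1120 CPM) overlapped the Sertoli-like ones (650 to 1092). These values are shares of UMIs, and Sertoli-like cells were shallower than pachytene-like ones. A level below theirs thus does not show that a germ class lacks expression. In all wild-type libraries, 106 Sertoli-like cells held 23 UMIs of Akap3, 51 of Akap4, 16 of Fscb, 25 of Cabyr and 76 of Ropn1. In 2228 division-like cells these were 1076, 947, 418, 1399 and 2035, and 2248 round spermatid-like cells held 4334 of Akap4. Every value lay above the Sertoli-like ones for Akap3 and Cabyr in round spermatid-like cells (Sertoli-like at most 460 and 650 CPM) and for Akap4 and Spa17 in elongating spermatid-like cells (Sertoli-like at most 1092 and 2206 CPM). In these 2 classes all other ranges of the 7 genes overlapped the Sertoli-like ones. The wild-type means of Spa17 in leptotene/zygotene-like and pachytene-like cells were also below that of Sertoli-like cells. But the gene had UMIs in spermatocytes of Mlh3-/- (given further on), a strain without spermatids, so its part from free RNA was not determined. In division-like cells the means of Ropn1l and Spa17 lay above the Sertoli-like ones. In early meiosis Ropn1l differed from the others in its pachytene-like mean only, at 2342 ± 469 CPM in Sertoli-like and 2878 ± 417 in pachytene-like cells. A UMI of Ropn1l was held by 59.8% of thinned Sertoli-like cells (exact 95% interval 48.3% to 70.4%) and 69.3% of thinned pachytene-like cells (63.9% to 74.3%). These intervals overlapped, and they cover counting error only.

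Steps between adjacent classes were tested on summed counts with edgeR's quasi-likelihood test, the library being a block. All 7 genes were called higher in both of the steps that lead to the round spermatid, Ropn1l by little and not under every alternative. For Akap3, Akap4, Fscb, Cabyr and Ropn1 both ends of the first of these steps lay below the Sertoli-like means. From pachytene-like to division-like cells (9 libraries), 7 of 7 rose, against 41.7% of 17401 genes called in either direction, with a median log2 change of 2.31 over the 7 and 0.50 over all genes. Cabyr rose by 3.19 ± 0.18 (SE) and Akap3 by 3.15 ± 0.20 on the log2 scale, while Ropn1l rose by 0.78 ± 0.09. From division-like to round spermatid-like cells (11 libraries), 7 of 7 rose again, where 49.8% of all genes were called. The changes of Ropn1 (2.48 ± 0.09), Akap4 (2.39 ± 0.10) and Akap3 (1.94 ± 0.09) stood beside 0.99 ± 0.08 for Spa17 and 0.42 ± 0.08 for Ropn1l (edgeR adjusted p = 4.18e-07). With total counts the median of all genes in the first of these steps was 0.08. The rise of Ropn1l in the second was not called when libraries were scaled by total counts (0.04), where the median of all genes was at -0.33 instead of -0.00, nor with the 29 genes kept in the clustering (0.07) or cells filtered on UMIs and genes only (0.15). Many other genes were used to form the classes, so the percentages over all genes are not those of an independent comparison.

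From round to elongating spermatid-like cells (11 libraries, 36.3% of all genes called), the genes parted. Akap4 rose by 1.76 ± 0.08, Spa17 by 1.24 ± 0.08 and Fscb by 0.84 ± 0.09 on the log2 scale, and Cabyr fell by 0.73 ± 0.08 and Ropn1l by 0.79 ± 0.08. Akap3 (-0.12 ± 0.09, edgeR adjusted p = 0.274) and Ropn1 (-0.04 ± 0.08, adjusted p = 0.752) were not called, and their direction depended on the scaling. With total counts, where the median of all genes moved from -0.07 to -0.41, both were called lower (-0.52 and -0.44), with edgeR's RLE factors Ropn1 was called higher (0.27), and with the 29 genes kept in the clustering both were called higher (0.22 and 0.28). The split of all genes into higher and lower calls, 2692 and 3626, became 1604 and 5345 with total counts and 3749 and 2613 with RLE factors. For the earlier steps it was 5049 and 2210 from pachytene to division (3272 and 3725 with total counts, 3667 and 3344 with RLE) and 4568 and 4089 from division to round (3786 and 5888 with total counts).

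At the first step, from leptotene/zygotene-like to pachytene-like cells (6 libraries, 10.7% of all genes called), Ropn1l rose, by 1.28 ± 0.15 (edgeR adjusted p = 2.39e-15). It ran from 1527 ± 494 CPM (SD, n = 6; 830, 1757 and 1977) to the pachytene-like level given above, its lower end being below the Sertoli-like mean of 2342 CPM. Akap4 (-1.08 ± 0.32), Cabyr (-1.37 ± 0.42), Fscb (-1.61 ± 0.54) and Ropn1 (-1.31 ± 0.32) were called lower, with edgeR adjusted p between 0.00119 and 0.0303, all at background in both classes. Akap3 (-1.22 ± 0.50, adjusted p = 0.103) and Spa17 (0.35 ± 0.17, adjusted p = 0.227) were not called. Spa17 was called higher at Leiden resolution 1 (0.68), with the 29 genes kept in the clustering (0.66) and with cells filtered on UMIs and genes only (0.81). Akap3 was called lower with DESeq2 (-1.87), RLE (-1.85), total counts (-1.63), Leiden resolution 1 (-1.30) and that cell filter (-1.56). Without wild-type library 11 the count fell from 5 to 1 of 7, and without library 6 or library 10 to 3. All genes split into 1155 higher and 704 lower calls here, and into 585 and 1212 with total counts and 360 and 1566 with RLE factors.

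Whether the genes differed from one another was asked with ratios between classes in the same library, since a difference of ratios between genes does not depend on the scaling, apart from the 20 CPM added. In log2 of CPM plus 20, the elongating-to-round ratio was 1.35 ± 0.26 (SD, n = 11) for Akap4, 0.85 ± 0.18 for Spa17 and 0.42 ± 0.13 for Fscb. It was -0.52 ± 0.38 for Ropn1, -0.53 ± 0.24 for Akap3, -1.11 ± 0.08 for Cabyr and -1.21 ± 0.34 for Ropn1l. Of the 21 pairs of genes, 19 differed in this ratio by the two-sided exact sign-flip permutation test over 11 libraries, with a smallest p of 0.000977, the lowest that this number of libraries allows, and Benjamini-Hochberg adjustment over the 21 pairs (adjusted p = 0.00121 for these). The 2 pairs not told apart were Akap3 and Ropn1 (difference -0.01 ± 0.32, exact adjusted p = 0.968) and Cabyr and Ropn1l (0.11 ± 0.37, exact adjusted p = 0.382). The round-to-pachytene ratio ran from 4.27 for Ropn1, 3.99 for Cabyr, 3.57 for Akap3, 3.22 for Fscb and 2.98 for Akap4 to 1.06 ± 0.17 for Spa17 and 0.25 ± 0.23 for Ropn1l (n = 9). Here 16 of 21 pairs differed, with a smallest exact p of 0.00391, and the 5 that did not were Akap3 with Akap4, Fscb or Cabyr, Akap4 with Fscb, and Cabyr with Ropn1 (exact adjusted p between 0.232 and 0.559). The pachytene-like side of this ratio was at background for all but Ropn1l and Spa17, and that of Spa17 was also below the Sertoli-like mean.

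**Figure D2:**
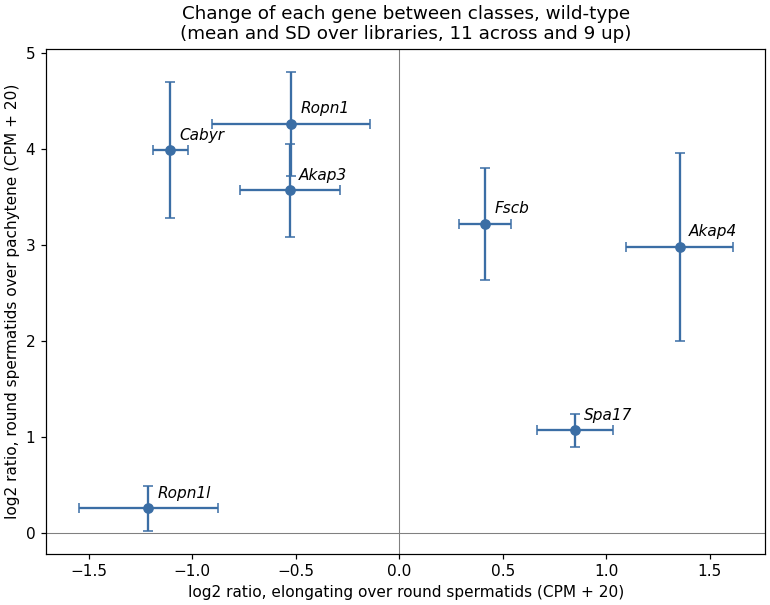
Log2 ratio of elongating to round spermatid-like cells (horizontal) and log2 ratio of round spermatid-like to pachytene-like cells (vertical) for the 7 genes in wild-type libraries, both on CPM plus 20. Points are means and bars the SD over libraries, 11 for the horizontal and 9 for the vertical axis. Akap4, Spa17 and Fscb lie to the right of 0 with means of 1.35, 0.85 and 0.42, and Ropn1l stands apart at the lower left with a mean of 0.25 on the vertical axis.

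The elongating spermatid-like class held several clusters, and the genes also differed between them. A pair of clusters with Tnp1 and Tnp2, genes of the transition proteins that replace histones in spermatids, among their 10 leading genes (led by Tfam and by Prss58) was set beside a pair with Prm2, a gene of the protamines that replace the transition proteins, among theirs (led by Prm1 and by Oaz3), in 10 wild-type libraries with both. They are called Tnp clusters and Prm clusters here. These clusters were picked after the values were seen, so they are described with no test. Akap3 was at a mean of 731 CPM in the Tnp clusters and 150 in the Prm clusters, lower in 10 of 10 libraries, with a log2 ratio of -2.14 ± 0.35 (SD). Ropn1 went from 1962 to 717 CPM and Ropn1l from 1543 to 868, each lower in 10 of 10. The other 4 genes did not show this: Fscb was at 423 and 666 CPM (lower in 1 library), Cabyr at 364 and 541 (lower in none), Akap4 at 2153 and 2545 (lower in 3) and Spa17 at 4106 and 4407 (lower in 2). In the Prm clusters of the enzymatic wild-type libraries 1 and 2, Ropn1 was at 80.6 and 91.2 CPM and Spa17 at 10681 and 7331. The mechanical wild-type libraries ran from 611 to 1000 CPM for Ropn1 and from 2771 to 5403 for Spa17. An effect of dissociation was not tested. Cells led by Hemgn, which lay at the border of the round and elongating classes, had 900 CPM of Akap3, 1025 of Cabyr, 2439 of Ropn1, 3541 of Ropn1l, 1265 of Akap4, 366 of Fscb and 2666 of Spa17.

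The genes whose wild-type profiles were most like each of the 7 were sought over 48 sums of 1 library and 1 germ class, among 6356 genes with a mean of at least 20 CPM, by Pearson's r of log2 of CPM plus 20. These correlations share libraries and depth and are given as a description. Akap4 was closest to Spert (r = 0.973), Gsg1 (0.968) and Spz1 (0.967), and Akap3 to Sh3d21 (0.946), Actl7a (0.931) and Spata7 (0.923). Fscb was closest to RP24-454N4.1 (0.964), Dnajc5b (0.955) and again Sh3d21 (0.943), and Cabyr to Stat4 (0.935), Tes (0.929) and Tex33 (0.927). Ropn1 was closest to 1700015F17Rik (0.974), 1700011L22Rik (0.960) and Scp2d1 (0.953), and Spa17 to Gm9059 (0.927), Nrd1 (0.923) and Csnk1g2 (0.904). Ropn1l had no profile as close, with Dynlrb2, a dynein light chain also used by cilia, at 0.868, 1700020D05Rik at 0.846 and Dkkl1, an acrosomal protein gene, at 0.845. Among the members themselves, r was 0.891 for Akap3 with Fscb, 0.890 for Akap3 with Ropn1 and 0.882 for Akap4 with Fscb, and between -0.44 (Akap4) and 0.06 (Cabyr) for Ropn1l with the others.

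Since the genes parted by stage, the bases ahead of RefSeq start sites are shown for 4 genes that were low until the spermatid (Akap3, Akap4, Fscb, Ropn1) and for the 2 that stayed abundant in Mlh3-/- libraries (Ropn1l, Spa17). The sequences are RefSeq windows on GRCm38.p6, matched by symbol for 6 of the 7 genes, and the 250 bases before the start site are printed 5′ to 3′ on the gene's strand. They lie at chr6:126852848-126853097 (+) for Akap3, chrX:7067265-7067514 (+) for Akap4, chr12:64474899-64475148 (-) for Fscb, chr16:34650961-34651210 (+) for Ropn1, chr15:31453690-31453939 (-) for Ropn1l and chr9:37613721-37613970 (-) for Spa17. By the GENCODE annotation given below, the Ropn1 window lies inside the gene (chr16:34649921-34678618) and not ahead of its annotated start. The Fscb window stops short of the annotated Fscb start (64474690). Capitals mark TGATGTCA in the first 3, of which a second copy in Akap3 runs past the printed bases, and GTTGCC in Ropn1l.
Akap3: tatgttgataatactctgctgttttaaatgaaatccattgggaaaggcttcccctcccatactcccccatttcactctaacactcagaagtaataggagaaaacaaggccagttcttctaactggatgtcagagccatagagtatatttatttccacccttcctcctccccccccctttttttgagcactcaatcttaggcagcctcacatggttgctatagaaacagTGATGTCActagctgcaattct
Akap4: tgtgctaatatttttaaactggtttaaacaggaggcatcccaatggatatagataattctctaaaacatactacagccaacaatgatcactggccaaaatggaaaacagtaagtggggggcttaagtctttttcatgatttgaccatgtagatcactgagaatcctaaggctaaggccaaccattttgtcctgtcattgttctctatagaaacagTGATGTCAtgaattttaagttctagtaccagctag
Fscb: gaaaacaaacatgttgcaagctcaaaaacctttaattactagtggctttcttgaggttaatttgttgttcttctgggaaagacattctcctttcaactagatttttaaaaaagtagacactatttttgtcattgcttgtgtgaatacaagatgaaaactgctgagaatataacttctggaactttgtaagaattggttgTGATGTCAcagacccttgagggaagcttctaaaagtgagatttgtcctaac
Ropn1: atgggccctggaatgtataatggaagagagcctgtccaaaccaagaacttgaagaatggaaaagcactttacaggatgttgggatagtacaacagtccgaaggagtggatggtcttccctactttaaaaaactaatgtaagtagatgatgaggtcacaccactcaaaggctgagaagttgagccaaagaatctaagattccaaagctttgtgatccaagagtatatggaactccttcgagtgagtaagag
Ropn1l: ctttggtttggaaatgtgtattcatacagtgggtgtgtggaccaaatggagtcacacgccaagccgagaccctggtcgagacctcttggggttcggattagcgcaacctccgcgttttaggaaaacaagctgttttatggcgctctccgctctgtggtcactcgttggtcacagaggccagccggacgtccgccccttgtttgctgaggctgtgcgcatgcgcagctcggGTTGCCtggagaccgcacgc
Spa17: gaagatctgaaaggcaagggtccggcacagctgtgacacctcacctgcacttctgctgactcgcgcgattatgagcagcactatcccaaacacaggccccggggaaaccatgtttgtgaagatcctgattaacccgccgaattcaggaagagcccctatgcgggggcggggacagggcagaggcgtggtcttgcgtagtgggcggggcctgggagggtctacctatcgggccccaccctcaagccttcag

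The letters TGATGTCA, which differ by 1 base from the cAMP-response element TGACGTCA to which CREM, a transcription factor of spermatids, binds, were found in the windows of Akap3 (beginning 22 bases and 1 base before the start site), Akap4 (35 bases before) and Fscb (51 bases before), and in 3.62% of the 32851 windows of all genes, counting both strands. They were not found in the window of Ropn1, which lies within the annotated gene, in a second window of Akap4 or in those of Ropn1l and Spa17. This search was made after the windows had been read, so it is a description. Akap3 and Akap4 also shared a run of 20 bases, ctatagaaacagtgatgtca, that ends with these letters and occurs in 2 of the 32851 windows, those of these 2 genes. The full element TGACGTCA (1.79% of windows), its core TGACG (20.8%) and TATAAA (13.6%) had no match in the members' windows, all on both strands and with TGACG lying within TGACGTCA. GTTGCC, part of the X-box motif of RFX factors, was found in Ropn1l alone, 20 bases before the start site, and in 12.5% of all windows. The windows of Ropn1l and Spa17 held 22 and 24 CpG dinucleotides with 58% and 63.3% GC. Those of Akap3, Akap4 at the start shown and Fscb held 0, with 45.3%, 38.3% and 35% GC, and that of Ropn1 held 2. Over all windows the median was 7 CpG with quartiles of 3 and 20.

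In the annotation (GENCODE vM21, GRCm38) the genes lie on 7 different chromosomes, all as protein-coding genes. They are Akap3 (ENSMUSG00000030344) at chr6:126853098-126874308, Akap4 on the X at chrX:7067519-7078609, Fscb at chr12:64471330-64474690, Cabyr at chr18:12740322-12755260, Ropn1 at chr16:34649921-34678618, Ropn1l at chr15:31441211-31453737 and Spa17 at chr9:37603290-37613722. Spa17 lies within the span of Siae on the opposite strand, and the spans of Ropn1l and Cabyr hold the pseudogenes Gm6361 (same strand) and Gm7599 (opposite strand). Whether strand was used in counting is not given in the sources used here, so reads of these overlapping genes cannot be told apart and the values of the 3 members are uncertain to that extent.

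Mlh3-/- spermatocytes do not complete the meiotic divisions, and the strain was used to ask what is expressed without later stages. Over whole libraries, 5 of the 7 genes were nearly absent from Mlh3-/- and 2 were not. Ropn1 had 0 UMIs among 15751953 (the floor of 3 counts over the group makes it at least 5547-fold lower than in wild-type), and Akap4 and Fscb had 1 UMI each, for ratios of wild-type to Mlh3-/- of 13353 (95% counting interval 2396 to 527446) and 4464 (801 to 176352). Cabyr had 9 UMIs (ratio 860, interval 453 to 1882) and Akap3 35 (ratio 178, interval 128 to 256). In wild-type libraries the same genes were at 1009 ± 160 CPM (SD, n = 11; 630, 1034 and 1262) for Ropn1, 843 ± 140 (694, 766 and 1142) for Akap4, 289 ± 52 (213, 277 and 367) for Fscb, 496 ± 57 (425, 502 and 602) for Cabyr and 406 ± 56 (317, 394 and 501) for Akap3. The highest value of any of these 5 in a Mlh3-/- library was 4.66 CPM, of Akap3. In whole libraries, fewer cells of a type and less RNA per cell cannot be told apart.

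Ropn1l and Spa17 remained abundant in Mlh3-/-. Ropn1l was at 1763 ± 708 CPM (SD, n = 6; 776, 1986 and 2667) there and at 2820 ± 498 (n = 11; 2183, 2859 and 3911) in wild-type, with overlapping ranges and a ratio of 1.31 (1.30 to 1.33) on pooled counts. Spa17 was at 688 ± 214 CPM (387, 708 and 995) in Mlh3-/- and 2369 ± 846 (1283, 2209 and 4403) in wild-type, without overlap and at a ratio of 2.75 (2.69 to 2.80). In the edgeR fit over whole libraries, 7 of 7 genes were called lower, where 61.3% of 23386 genes were called in either direction. The fitted changes of Ropn1l (-1.18 ± 0.24, edgeR adjusted p = 7.54e-05) and Spa17 (-2.26 ± 0.26, adjusted p = 4.56e-09) stood beside a median of 0.16 over all genes, and that median was 0.62 with total counts, where all genes split into 10098 higher and 5140 lower calls instead of 7645 and 6687. The 7 calls were also made with HiSeq libraries of mechanical dissociation alone (59.8% of all genes called) and with DESeq2 (56.2%).

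**Figure D3:**
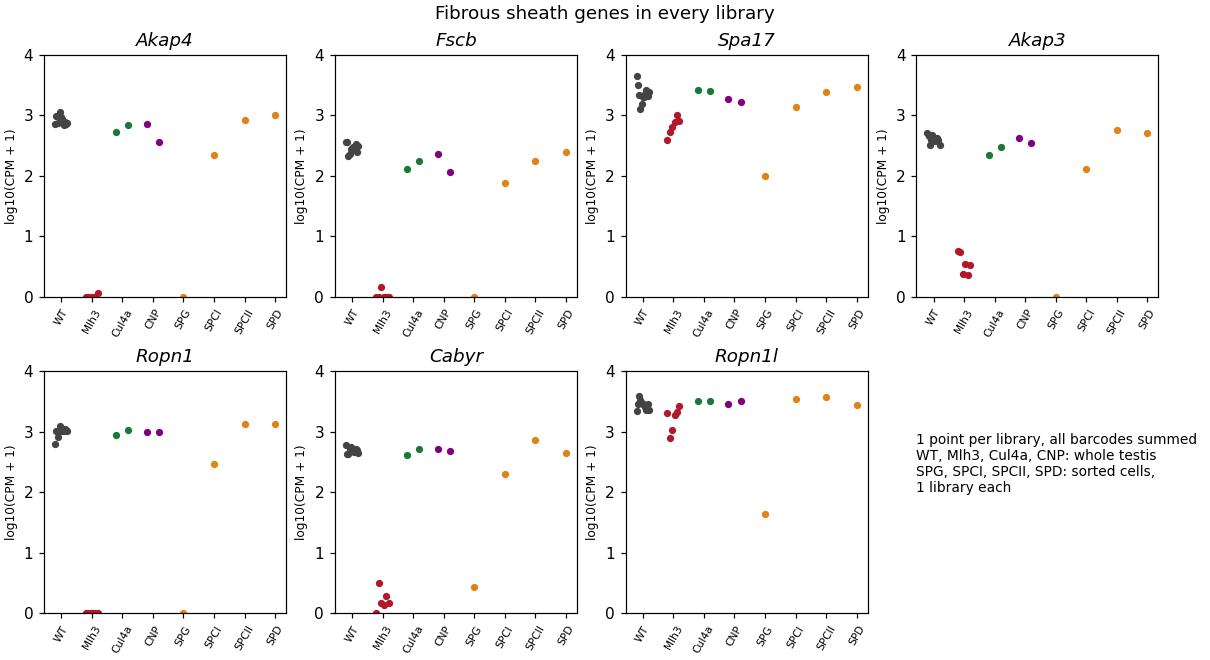
Level of each of the 7 genes in every library, as log10 of CPM plus 1 over the whole library, by group. In Mlh3-/- (6 libraries) 5 genes lie at or near 0 while Ropn1l and Spa17 lie between 776 and 2667 CPM and between 387 and 995 CPM, and in sorted spermatogonia the highest of the 7 is Spa17 at 97.6 CPM.

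Within pachytene-like cells the comparison of Mlh3-/- (655 cells, 6 libraries) with wild-type (358 cells, 9 libraries) gave the same division, 5 of 7 genes being called lower where 9.7% of 14708 genes were called. Akap4, Fscb and Ropn1 had 0 UMIs in Mlh3-/- pachytene-like cells, which puts wild-type at least 164-fold, 36.4-fold and 133-fold higher, and Cabyr had 1 UMI (ratio 211, interval 36.2 to 8467). Akap3 had 16 UMIs against 42 in wild-type, 3.32 ± 2.95 CPM (n = 6; from 0 to 7.61) against 44.7 ± 26.0, for a ratio of 10.2 (5.63 to 19.5) and a fitted change of -3.19 ± 0.46 (edgeR adjusted p = 9.37e-08). The wild-type side of these 5 differences lies at the background level set by Sertoli-like cells, so they are not read as a difference in expression between spermatocytes. The calls were 5 as well within HiSeq mechanical libraries (10.1% of all genes) and with DESeq2 (7.44%), and 4 with edgeR's filterByExpr, which left Fscb untested.

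Ropn1l and Spa17, in contrast, were present in Mlh3-/- pachytene-like cells. Ropn1l was at 2095 ± 726 CPM (SD, n = 6; 845, 2258 and 2890), overlapping wild-type (change -0.36 ± 0.21, edgeR adjusted p = 0.307), and Spa17 at 798 ± 285 (290, 889 and 1032; change -0.22 ± 0.20, adjusted p = 0.551). In Sertoli-like cells of the same strain (n = 4), Ropn1l was at 1049 ± 705 CPM (334 to 2015) and Spa17 at 380 ± 176 (152 to 581), and in Leydig-like cells (n = 6), the androgen-producing somatic cells, at 762 ± 623 and 257 ± 163. The Mlh3-/- means were thus higher in pachytene-like than in somatic cells, although the ranges overlapped for both genes. After thinning to 500 UMIs, 67.1% of 593 Mlh3-/- pachytene-like cells and 39.8% of 133 Sertoli-like cells held a UMI of Ropn1l, and 32.9% and 13.5% a UMI of Spa17 (88.7%, 49.1%, 73.6% and 29.2% before thinning). The 5 other genes had 0 UMIs in the Mlh3-/- Sertoli-like cells, and in thinned pachytene-like cells each was found in 0 of 593. In Mlh3-/- libraries Ropn1l was at a mean of 220 CPM in spermatogonia-like (n = 3), 1177 in leptotene/zygotene-like (n = 4) and 3310 in division-like cells (n = 2), and Spa17 at 120, 613 and 841.

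**Figure D4:**
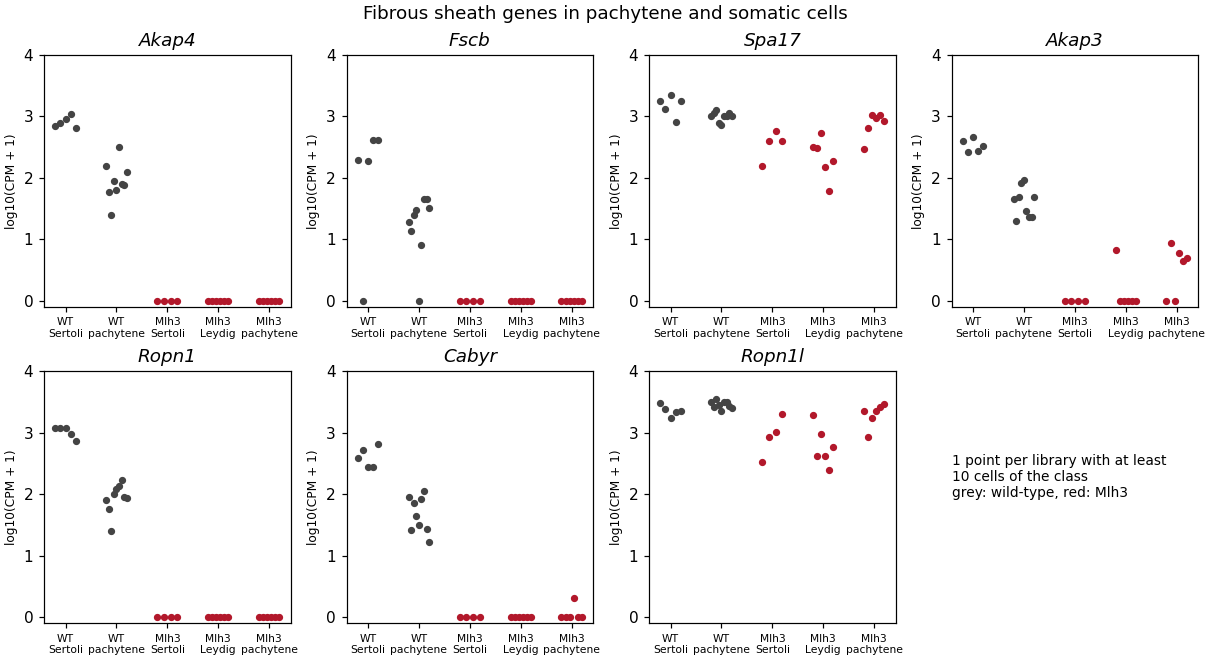
Log10 of CPM plus 1 of the 7 genes in Sertoli-like and pachytene-like cells of wild-type and in Sertoli-like, Leydig-like and pachytene-like cells of Mlh3-/-, each point being 1 library with at least 10 such cells. In wild-type the Sertoli-like means of Akap4 (825) and Ropn1 (1045) exceed the pachytene-like means (108 and 95.6), whereas in Mlh3-/- Sertoli-like cells only Ropn1l and Spa17 have any UMI.

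The sorted fractions, of 1 library each and so without a test, gave the earliest and latest ends. In sorted spermatogonia, Akap3, Akap4, Fscb and Ropn1 had 0 UMIs among 1168498, which allows up to 2.57 CPM (3 counts), Cabyr had 2, and Ropn1l and Spa17 were at 41.9 CPM (exact 95% interval 31.0 to 55.4) and 97.6 CPM (80.5 to 117). The library labelled primary spermatocytes had 3492 CPM of Ropn1l and 1372 of Spa17, beside 131 of Akap3, 224 of Akap4, 74.7 of Fscb, 196 of Cabyr and 289 of Ropn1. Its 15 pachytene-like cells held 48 UMIs of Ropn1l and 8 of Spa17 but 2 of Akap4 and 0 of the 4 others. The spermatid library had 1025 CPM of Akap4 (900 to 1162), 510 of Akap3, 249 of Fscb, 443 of Cabyr, 1349 of Ropn1, 2766 of Ropn1l and 2892 of Spa17, and in its elongating spermatid-like cells Akap4 was at 1369 CPM against 831 in its round ones. In the library labelled secondary spermatocytes, whose kept cells were mostly spermatid-like, Akap4 was likewise at 1758 CPM in elongating and 931 in round spermatid-like cells. In both libraries most elongating spermatid-like cells lay in the shallow, weakly marked cluster described above.

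Cul4a-/- testis held spermatid-like cells, in which 4 of the 7 genes lay within the wild-type range at the round stage and 3 lay below it. In round spermatid-like cells, Fscb was at 205 and 243 CPM in the 2 Cul4a-/- libraries, both below the lowest of the 11 wild-type values (316). It was the only member called (log2 change -0.73 ± 0.22, edgeR adjusted p = 0.0349), at a background of 5.84% of 17024 genes. Akap3, at 392 and 485 CPM against 645 to 808, missed the threshold (-0.66 ± 0.21, edgeR adjusted p = 0.0516), as did Akap4 at 500 and 648 CPM against 651 to 1120 (-0.54 ± 0.23, adjusted p = 0.158). In wild-type, the round spermatid-like ranges of Fscb and Akap4, unlike that of Akap3, overlapped those of Sertoli-like cells. The part of free RNA in these differences was not tested. Cabyr (902 and 1010 CPM), Ropn1 (1735 and 1872), Ropn1l (3867 and 3888) and Spa17 (2676 and 2925) lay within the wild-type range. The call of Fscb was lost without wild-type library 7, 9, 10 or 11, without either Cul4a-/- library or without CNP library 1, and also at Leiden resolution 1 (-0.51, edgeR adjusted p = 0.136) and with cells filtered on UMIs and genes only (-0.59, adjusted p = 0.0901) (edgeR adjusted p from 8.88e-05 to 0.578 over all alternatives, its direction being kept in each). Among HiSeq libraries of mechanical dissociation, 4 of 7 were called in this class, Akap3 (-0.65, edgeR adjusted p = 7.89e-05), Akap4 (-0.50, adjusted p = 0.00282) and Fscb (-0.68, adjusted p = 8.88e-05) lower and Spa17 (0.42, adjusted p = 0.00522) higher, where 14.6% of all genes were called, and DESeq2 called Akap3 and Fscb (3.22%).

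The Cul4a-/- round spermatid-like cells came mostly from 2 clusters, with 508 and 398 of their 1123 cells, in which 8 and 1 of the 2248 wild-type cells lay, so that the class compared different clusters. In the elongating class, 700 of 1352 Cul4a-/- cells came from a cluster led by Prm1, Tnp1 and Defb33 that held 55 wild-type cells. There 0 of 7 genes were called (5.2% of 14627 genes), with 1 at an unadjusted p under 0.05 and 0 by DESeq2. Fscb was at 252 and 337 CPM against 360 to 674 in wild-type, Akap4 at 1717 and 1991 against 1775 to 3060, and Akap3 at 368 and 443 against 365 to 662. With total counts in place of TMM, Fscb was called lower (-0.80) and the calls of all genes split into 233 higher and 565 lower instead of 621 and 140 (433 and 205 with RLE). In pachytene-like cells 0 of 7 were called (0.7% of 14708 genes, split into 92 higher and 11 lower, or 46 and 12 with RLE and 40 and 14 with total counts; 3 unadjusted, 0 by DESeq2), and 2 within HiSeq mechanical libraries (2.53%), where Akap4 was lower (-1.29, edgeR adjusted p = 0.0118) and Spa17 higher (0.64, adjusted p = 0.0231). Over whole libraries 0 of 7 passed (2.06% of 23386 genes; 2 unadjusted), with Fscb at 127 and 178 CPM against 213 to 367 (-0.92 ± 0.27, edgeR adjusted p = 0.0658) and Akap3 at 220 and 296 CPM against 317 to 501 (-0.65, adjusted p = 0.138). Both were called lower by DESeq2 (4.2% of all genes) and among HiSeq mechanical libraries (8.79%; -0.94 and -0.69).

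**Figure D5:**
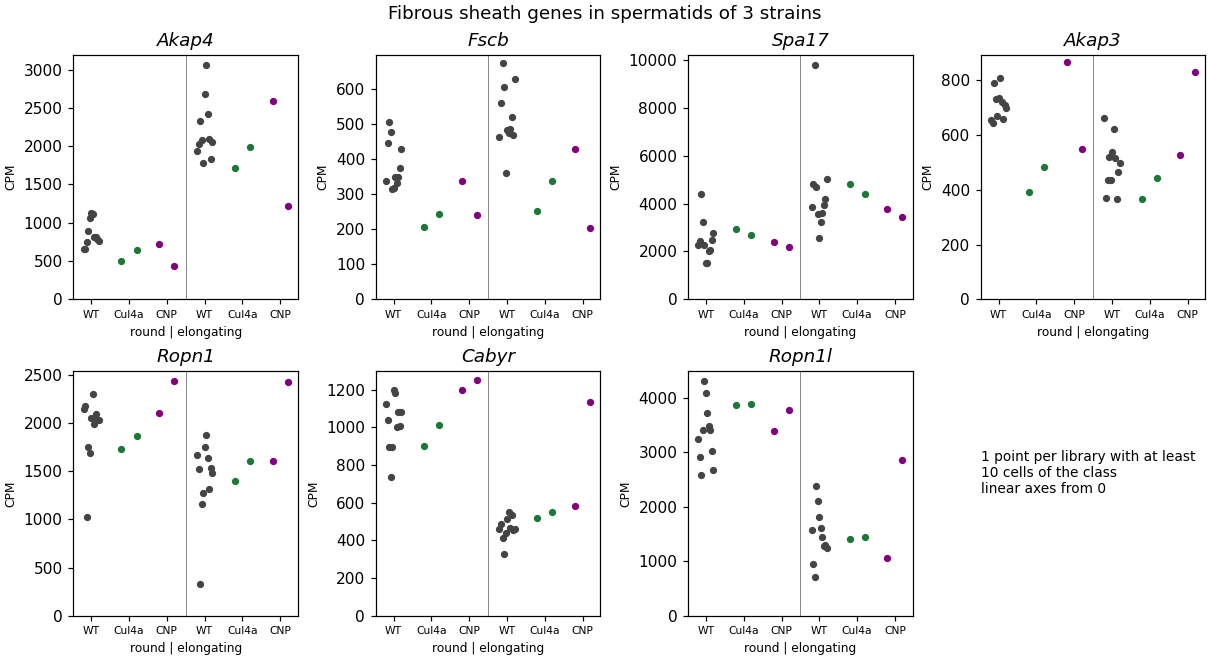
CPM of the 7 genes in round and elongating spermatid-like cells of wild-type, Cul4a-/- and CNP libraries, each point being 1 library. In round spermatid-like cells, the 2 Cul4a-/- values of Fscb (205 and 243) and Akap3 (392 and 485) lie below all 11 wild-type values, whose lowest are 316 and 645.

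CNP mice carry an EGFP-tagged ribosomal protein driven by the promoter of Cnp, a gene of myelinating glia. Of the 2 libraries, the values of the 3 genes that were low in Cul4a-/- were spread widely. In round spermatid-like cells Fscb was at 336 and 241 CPM, Akap3 at 868 and 550 and Akap4 at 716 and 440, and none of the 7 was called (0.511% of 17024 genes; 2 unadjusted, 0 by DESeq2). The change of Akap4 was -0.68 ± 0.25 (edgeR adjusted p = 0.435), and within HiSeq mechanical libraries it was called lower (-0.65, adjusted p = 0.00939; 1.16% of all genes). In elongating spermatid-like cells Fscb was at 429 and 203 CPM, Akap4 at 2586 and 1216 and Akap3 at 528 and 831, with 0 of 7 called (0.39% of 14627 genes; 1 unadjusted, 0 by DESeq2). CNP library 2 stood apart in this class: its Cabyr (1135 CPM), Ropn1l (2858), Ropn1 (2433) and Akap3 (831) were above all 11 wild-type values and its Akap4 and Fscb below them. Of the 192 elongating spermatid-like CNP cells, 69 lay in a cluster led by Hemgn. In pachytene-like cells 0 of 7 were called (0.415%; 1 unadjusted, 0 by DESeq2). The CNP calls of all genes were mostly lower, 3 higher and 58 lower in pachytene-like cells (8 and 41 with total counts), 3 and 54 in elongating spermatid-like cells (9 and 36) and 19 and 108 over whole libraries (36 and 79). Over whole libraries Akap4 was at 357 and 733 CPM and Fscb at 117 and 231, again with 0 of 7 called (0.543%; 2 unadjusted, Akap4 at -0.78 with edgeR adjusted p = 0.255 and Fscb at -0.88 with adjusted p = 0.188). DESeq2 (2.51% of all genes) and the HiSeq mechanical libraries (1.99%) each called Akap4 and Fscb lower. The Mlh3-/-, Cul4a-/- and CNP comparisons share the wild-type libraries.

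The other genes of the sheath and its surroundings were given by lists, 22 genes in all. They were 4 further sheath genes (Fsip1, Fsip2, Akap14, Rhpn1), 6 PKA subunits, 8 genes of the glycolytic enzymes bound to the sheath or specific to sperm and 4 outer dense fiber genes. From pachytene-like to division-like cells, 17 of 22 rose and 0 fell (41.7% of all genes were called in either direction), led by Akap14 (4.77 ± 0.43), which encodes an A-kinase anchoring protein of the tail, and Fsip1 (3.15 ± 0.19). All 8 glycolytic genes and all 4 outer dense fiber genes were among them, with list medians of 1.72 and 1.76. These rises were not set against Sertoli-like levels, except that Gapdhs and Odf1, as given below, were at background in pachytene-like cells. From division-like to round spermatid-like cells 13 rose and 3 fell (49.8% of all genes called), with Prkar2a, a PKA regulatory subunit that A-kinase anchoring proteins bind (2.71 ± 0.15), and Odf3 (2.62 ± 0.10) showing the largest changes. All 3 that fell were PKA subunits (Prkaca, Prkar1a and Prkar2b). Prkar2a was the only 1 of the 6 PKA subunits that rose (list median -0.50). From round to elongating spermatid-like cells 10 rose and 6 fell (36.3% of all genes called). Prkar2a rose again, by 2.57 ± 0.10, whereas Akap14 fell by 2.49 ± 0.21 and Fsip1 and Fsip2 fell with it. In this step 3 of the 4 further sheath genes thus fell (median -2.03), while 6 of 8 glycolytic genes rose and 1 fell (median 1.04) and 3 of 4 outer dense fiber genes rose and 1 fell (median 1.12), against a median of -0.07 over all genes. Of the 6 PKA subunits, Prkar2a rose, Prkar1a fell and 4 were not called (median -0.13). From leptotene/zygotene-like to pachytene-like cells 3 rose and 4 fell (10.7% of all genes called), with Eno4, a sperm enolase gene (3.69 ± 0.89), and Ldhc, the germ cell lactate dehydrogenase gene (1.79 ± 0.13), rising most.

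Between strains, 18 of these 22 genes were lower and 2 (Prkacb and Prkar2b) higher in whole Mlh3-/- libraries, where 61.3% of all genes were called, including all 8 glycolytic and all 4 outer dense fiber genes. Within Mlh3-/- pachytene-like cells 9 were lower and 1, Fsip2, higher, where 9.7% of all genes were called, with Gapdhs and Odf1 showing the largest fitted changes. In wild-type, Gapdhs was at 206 ± 100 CPM (SD, n = 9) in pachytene-like and 1448 ± 519 (n = 5) in Sertoli-like cells, and Odf1 at 24.1 ± 19.6 and 410 ± 542, so the wild-type side of these changes too was at background. In Cul4a-/- round spermatid-like cells, Fsip2 (-0.94 ± 0.24, edgeR adjusted p = 0.0108) and Eno4 (-1.06 ± 0.26, adjusted p = 0.00619) were lower. These were 2 of 22, where 5.84% of all genes were called. Both were lower as well in Cul4a-/- elongating spermatid-like cells, where 21 of the 22 were tested and 5.2% of all genes were called (-0.99 ± 0.25 and -1.18 ± 0.35, edgeR adjusted p = 0.0105 and 0.0279). Over whole Cul4a-/- libraries, where 2.06% of all genes were called, both were lower together with Fsip1 (-1.12 ± 0.27 and -1.28 ± 0.27 for Fsip2 and Eno4, edgeR adjusted p = 0.0199 and 0.00673). None of the 22 was called by edgeR in Cul4a-/- pachytene-like cells, where 0.7% of all genes were called, or in the CNP comparisons. For CNP the share of all genes called was 0.415% in pachytene-like, 0.511% in round and 0.39% in elongating spermatid-like cells, and 0.543% over whole libraries.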

How the data were processed

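The authors sequenced Drop-seq libraries, aligned the reads with STAR (2.5.3a per the labels) to mm10 and deposited UMI counts per gene and barcode for each library, without normalization. A symbol missing from a table was taken as 0 UMIs. The 7 genes, the gene lists and the comparisons were chosen with earlier results of these data known. Barcodes with at least 200 UMIs and 50 genes and under the study's limits were kept, and no doublet caller was run. Cells were clustered on 19013 genes (40 principal components, 20 neighbours, Leiden resolution 2; leidenalg 0.10.2), leaving out the 29 members and listed genes, and clusters were named from markers. Counts summed per library and class (at least 10 cells; genes with at least 5 counts) were fitted with edgeR 4.0.16 (TMM, quasi-likelihood, adjusted p under 0.05 called) in R 4.3.3, with the alternatives given in the closing section. The stage fits took the wild-type libraries with the library as block, and the strain fits took all whole-testis libraries. DESeq2 1.42.0 was the alternative. The procedure was tested on simulated counts. Ratios used CPM plus 20 and exact sign-flip permutation in scipy 1.17.1. Intervals of shares and counts were exact at 95%, and limits for a count of 0 used 3 counts. Genes were named by a rule: every member, the 2 listed genes with the largest called change per comparison, and the 3 most like profiles per member, and further listed genes are named by their direction alone. Replicate numbers were checked for pairing and did not pair the libraries.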

Additional observations from a re-analysis of the deposited data

Results flagged for a closer look

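Akap4 in wild-type library 6 stood apart from the other libraries in both early meiotic classes. In leptotene/zygotene-like cells it was at 872 CPM, against a median of 302 over 6 libraries, and in pachytene-like cells at 313 CPM, against a median of 78.3 over 9 libraries. In each case the gap to the next library exceeded the critical share of the group's range in Dixon's test at the 95% level. Of 17 groups tested, 2 were flagged in this way, and chance flags about 5% of groups. Both values are at or near the level of Akap4 in wild-type Sertoli-like cells (825 ± 182 CPM, n = 5) or below it, and the part of free RNA in them was not tested.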

How the results depend on the processing

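Between 1 and 5 of the 7 genes were called from leptotene/zygotene-like to pachytene-like cells over the leave-one-out fits and between 4 and 7 over the other alternatives (5 with all libraries). Ropn1 from round to elongating spermatid-like cells turned from -0.04 to 0.27 with RLE and to 0.28 with members kept in the clustering, where Akap3 turned to 0.22. In Cul4a-/- pachytene-like cells (0 called) the count was 1 with no filter on low counts, with at least 50 cells or with the platform as covariate, 2 within HiSeq mechanical libraries and 0 to 1 over the leave-one-out fits. With a replicate block it was 2 (Ropn1l 1.52 and Spa17 2.14, log2), but the numbers did not pair the libraries (correlations from -0.28 to 0.15 over 6 numbers of wild-type and Mlh3-/-, -0.16 and 0.27 for the 2 of wild-type and Cul4a-/-, and -0.24 and 0.31 for the 2 of wild-type and CNP). In Cul4a-/- round spermatid-like cells (1 called) it was 2 with DESeq2, RLE, total counts, filterByExpr, at least 50 cells, members kept or the platform covariate, 4 within HiSeq mechanical libraries, 0 at Leiden resolution 1 or with cells filtered on UMIs and genes only, and 0 to 2 over the leave-one-out fits. In CNP round spermatid-like cells (0) it was 1 within HiSeq mechanical libraries, and in Cul4a-/- elongating spermatid-like cells (0) it was 1 with total counts (Fscb) and 1 with members kept (Cabyr, 0.73). Over whole Cul4a-/- libraries (0) it was 2 with DESeq2, 1 with filterByExpr, 2 within HiSeq mechanical libraries and 0 to 1 over the leave-one-out fits, and over whole CNP libraries (0) it was 2 with DESeq2 and 2 within HiSeq mechanical libraries. The pairs called in the round-to-pachytene ratio fell from 16 to 0 with at least 50 cells, which leaves 2 libraries and an exact p of at least 0.5, and were 13 to 16 over the leave-one-out sets. The causes of the other changes were not tested.

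Counts over all genes moved by more than 1.5 times in the strain fits, other than that of whole Mlh3-/- libraries, and in the first stage step. From leptotene/zygotene to pachytene 1859 calls became 1195 (without wild-type library 11) to 3381 (Leiden resolution 1). In pachytene-like cells the Mlh3-/- calls ran from 531 (replicate block) to 2939 (cells filtered on UMIs and genes only) around 1426, the Cul4a-/- calls from 24 to 1583 around 103 and the CNP calls from 5 to 102 around 61. In round spermatid-like cells they ran from 182 to 2447 around 994 (Cul4a-/-) and from 11 to 422 around 87 (CNP), in elongating ones from 37 to 1539 around 761 and from 1 to 95 around 57, and over whole libraries from 105 to 2020 around 481 and from 14 to 975 around 127. Of the members' changes, 2559 kept their side of the threshold over the alternatives, and their direction where called. A further 47 gained and 24 lost the call with direction kept, and 3 turned with a call in either fit. Turns of direction among changes called in neither fit were not counted. Scaling by total counts moved the median log2 change of all genes from 0.15 to -0.17 (Cul4a-/- elongating), from 0.16 to -0.00 (Cul4a-/- pachytene), from -0.84 to -0.53 (CNP elongating) and from -0.34 to -0.10 (CNP pachytene). Depth limits the small classes most: Akap3 in CNP pachytene-like cells rests on 1 UMI.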
